A study of Mus musculus with 6 samples.

Results

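In the liver of antibiotic-treated (ABX) mice, the transcripts of the 3 paraoxonase genes Pon1, Pon2 and Pon3 were compared between a short-day (SD) and a normal light–dark (NLD) cycle. The members were the rows of the deposited count table that carry these 3 symbols, 3 of 55357 rows, and all 3 passed the filter on low counts together with 7261 rows in total. All 6 mice were C57BL/6 mice (C57BL/6N in the methods of the study) that drank a cocktail of gentamicin, sulbenicillin, cephalosporin and amphotericin B, which depletes gut bacteria and fungi. The SD group (3 mice) had 8 h of light and 16 h of dark, the NLD group (3 mice) had 12 h of light and 12 h of dark, and each liver library was taken as 1 mouse. No liver of a mouse without antibiotics was analysed here, so the comparison is of day length within ABX mice. The mice were housed singly, fasted before sampling and killed in the same hours of the morning, and the labels give Day 28.

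Paraoxonases are calcium-dependent hydrolases that cleave lactones, and PON1 also cleaves aryl esters and the toxic oxon forms of organophosphate pesticides such as paraoxon. In humans, PON1 and PON3 are made mainly in the liver, are secreted and ride in blood on high-density lipoprotein (HDL). There PON1 is bound through apolipoprotein A-I and protects lipids from oxidation. PON2 is made in most tissues and stays inside cells, in membranes of the endoplasmic reticulum and mitochondria. In humans and mice the 3 genes lie side by side.

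The 3 genes formed a cluster near the start of chromosome 6, all on the minus strand. In GRCm39 (GENCODE vM39), Pon1 (ENSMUSG00000002588.14) lay from 5167120 to 5193946, Pon3 (ENSMUSG00000029759.10) from 5220758 to 5256301 and Pon2 (ENSMUSG00000032667.18) from 5263103 to 5298476. The main transcript of each had 9 exons, and the coding length was 1065 bp for Pon1 and 1062 bp for both Pon2 and Pon3. The submitters' notes name GRCm38 and the methods name GRCm39, so the place of the cluster was compared between the builds. The first 77 promoter sequences of chromosome 6, given by RefSeq at their GRCm38.p6 positions, were found base for base at the same numbers in GRCm39, and the first that differed began at 10895246. The cluster lies inside that stretch, so its rows can be read under their names in either build. Most other rows cannot be relied on in this way. Of 15 hepatocyte marker rows, 8 were listed at 0 in all 6 libraries, Ttr, Apoa1 and Fgg among them. The cause of these zeros was not tested. Genes other than the members are therefore described mainly from the position-matched rows, those whose surrounding promoters stand at identical numbers in both builds (327 of the 7261 tested).

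The coding sequences of Pon1 and Pon2 were identical at 66.3% of 1059 aligned bases, those of Pon2 and Pon3 at 65.8% of 1062 and those of Pon1 and Pon3 at 62.6% of 1061. The longest stretch that any annotated transcript of Pon1 shared with one of Pon2 was 34 bases, and it was 17 bases for Pon1 with Pon3 and for Pon2 with Pon3. No row on the same strand overlapped a member, but Gm44250, a row of unproven coding status, lay 271 bp downstream of Pon3 on the same strand. On the plus strand, the row Gm44424 overlapped Pon2, with 3 counts in SD replicate 1 and none elsewhere.

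The 250 bases before the RefSeq start of each gene are shown because the promoters of the 3 neighbours differ in base composition. Capitals mark CG dinucleotides, the target of DNA methylation and the mark of CpG island promoters, and each sequence is of the minus strand of GRCm38.p6, at chr6:5193947-5194196 for Pon1, chr6:5256234-5256483 for Pon3 and chr6:5298341-5298590 for Pon2.
Pon1: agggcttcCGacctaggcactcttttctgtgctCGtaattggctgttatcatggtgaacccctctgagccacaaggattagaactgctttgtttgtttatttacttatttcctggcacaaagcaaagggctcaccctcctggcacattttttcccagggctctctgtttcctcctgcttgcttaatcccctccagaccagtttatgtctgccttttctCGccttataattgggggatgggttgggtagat
Pon3: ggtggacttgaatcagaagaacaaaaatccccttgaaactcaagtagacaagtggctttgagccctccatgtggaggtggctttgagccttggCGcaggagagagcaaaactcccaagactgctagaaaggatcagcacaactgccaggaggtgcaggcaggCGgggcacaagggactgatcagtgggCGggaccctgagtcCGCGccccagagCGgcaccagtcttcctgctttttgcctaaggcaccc
Pon2: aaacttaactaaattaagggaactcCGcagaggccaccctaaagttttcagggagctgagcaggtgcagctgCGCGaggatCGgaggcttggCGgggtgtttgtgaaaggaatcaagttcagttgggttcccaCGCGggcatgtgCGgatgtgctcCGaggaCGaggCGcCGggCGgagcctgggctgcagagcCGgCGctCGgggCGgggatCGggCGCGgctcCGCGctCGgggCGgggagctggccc

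The Pon1 window held 3 CG dinucleotides and 47.6% G and C, the Pon3 window held 6 and 56.8%, and the Pon2 window held 24 and 65.6%. Over the 32841 windows of the same length in the RefSeq table the medians were 6 and 52.4%, and fewer CG dinucleotides than in Pon2 were found in 88.0% of them. The GC box GGGCGG, read on both strands, occurred 3 times in Pon2, 1 time in Pon3 and not in Pon1, and 32.7% of all windows held it. The CCAAT box, read on both strands, occurred 2 times in Pon1 and in neither of the others, and 33.9% of all windows held it. TATAAA, the E-box CACGTG bound by clock factors and the nuclear receptor half-site AGGTCA were in none of the 3 windows, and 12.4%, 6.02% and 14% of all windows held them. The GENCODE genes start further upstream, so that 136 bases of the Pon2 window and 68 of the Pon3 window lie inside them. No promoter activity was measured in these mice.

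Pon1 had by far the most counts of the 3 genes. It had 88030, 88637 and 95973 counts in the 3 SD libraries and 87169, 104192 and 111647 in the 3 NLD libraries, which was 1.28% to 1.59% of all counts under SD and 1.59% to 1.76% under NLD. It had rank 4 or 5 among the rows of each library, in a table where abundant liver transcripts such as Alb, Ttr and Apoa1 are at or near 0, so that its rank among all liver transcripts was not measured. Levels are given below in CPM (a gene's share of a library's counts, on the usual scale) adjusted between libraries by TMM (trimmed mean of M values), and errors are standard deviations over 3 mice. Pon3 had 5198, 5656 and 5972 counts under SD and 4573, 4662 and 4737 under NLD, with ranks between 169 and 215 over the 6 libraries. Pon2 had 3840, 4361 and 4430 counts under SD and 3485, 3260 and 3519 under NLD, with ranks between 228.5 and 311.5. Counting error was at most 0.339% of a value for Pon1, 1.48% for Pon3 and 1.75% for Pon2, so that depth did not limit these rows. This takes each count as 1 read and leaves out every other source of error.

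Levels of different genes were compared per kb of their merged exons. Pon1 had 2620 ± 190 CPM per kb under SD and 3133 ± 334 under NLD (mean ± standard deviation, n = 3 each). Pon3 had 115 ± 5.39 CPM per kb under SD and 103 ± 0.46 under NLD, and Pon2 had 52.9 ± 1.51 under SD and 46.4 ± 2.23 under NLD (n = 3 each). The order Pon1, Pon3, Pon2 was the same in 6 of 6 libraries. Among 272 tested protein-coding rows that were position-matched, the Y chromosome left out, Pon1 had rank 2 per kb, Pon3 rank 58 and Pon2 rank 99, and the median row had 24.99 CPM per kb.

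Within a library, where no scaling enters, Pon1 was 26.3-fold above Pon3 per kb of merged exons, 57.7-fold above Pon2, and Pon3 was 2.19-fold above Pon2 (geometric means over 6 libraries). As log2 ratios these were 4.72 ± 0.25, 5.85 ± 0.28 and 1.13 ± 0.05 (standard deviation, n = 6). Each of the 3 pairs had a two-sided p of 0.03125 in the exact sign-flip permutation test, the smallest that 6 libraries allow, and the same value after Benjamini-Hochberg adjustment over the 3 pairs. All 6 log2 ratios of each pair had the same sign, so the test could give no other value. It pools SD and NLD libraries and does not measure the error of the chosen length. The size of these ratios depends on which transcript is taken as the length. Pon3 over Pon2 was 1.09-fold with the longest transcript, 1.35-fold per coding length and 2.53-fold with the canonical transcript, and Pon1 over Pon2 was 35.7-fold, 25.1-fold and 57.9-fold. No length turned the order.

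The level of Pon1 was 14905, 13014 and 14654 CPM in the SD libraries, against 14982, 17425 and 18514 CPM in the NLD libraries. Every SD library lay below every NLD library, but SD replicate 1 and NLD replicate 1 were nearly level, and the gap rested on NLD replicates 2 and 3. The means were 14191 ± 1027 CPM under SD and 16973 ± 1809 under NLD (n = 3 each), a log2 fold change of -0.26 (standard error 0.13, 95% interval -0.58 to 0.06), or 0.84-fold with an interval of 0.67 to 1.04. Pon1 did not pass edgeR's quasi-likelihood test (adjusted p = 0.631 over 7261 rows) or DESeq2 (adjusted p = 0.493). Without NLD replicate 1 the log2 fold change was -0.34, with an adjusted p of 0.295 from edgeR.

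Pon3 lay at 880, 830 and 912 CPM in the SD libraries, against 786, 780 and 786 CPM in the NLD libraries. The NLD libraries were tightly packed, and every SD library lay above them. The means were 874 ± 41.0 CPM under SD and 784 ± 3.52 under NLD (n = 3 each), a log2 fold change of 0.16 (standard error 0.11, 95% interval -0.10 to 0.42). The adjusted p was 0.704 from edgeR and 0.664 from DESeq2.

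Pon2 lay at 650, 640 and 676 CPM in the SD libraries, against 599, 545 and 584 CPM in the NLD libraries. Here too the groups did not overlap, SD being higher, with NLD replicate 2 the lowest. The means were 656 ± 18.7 CPM under SD and 576 ± 27.7 under NLD (n = 3 each), a log2 fold change of 0.19 (standard error 0.11, 95% interval -0.08 to 0.45). The adjusted p was 0.658 from edgeR and 0.589 from DESeq2.

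**Figure D1:**
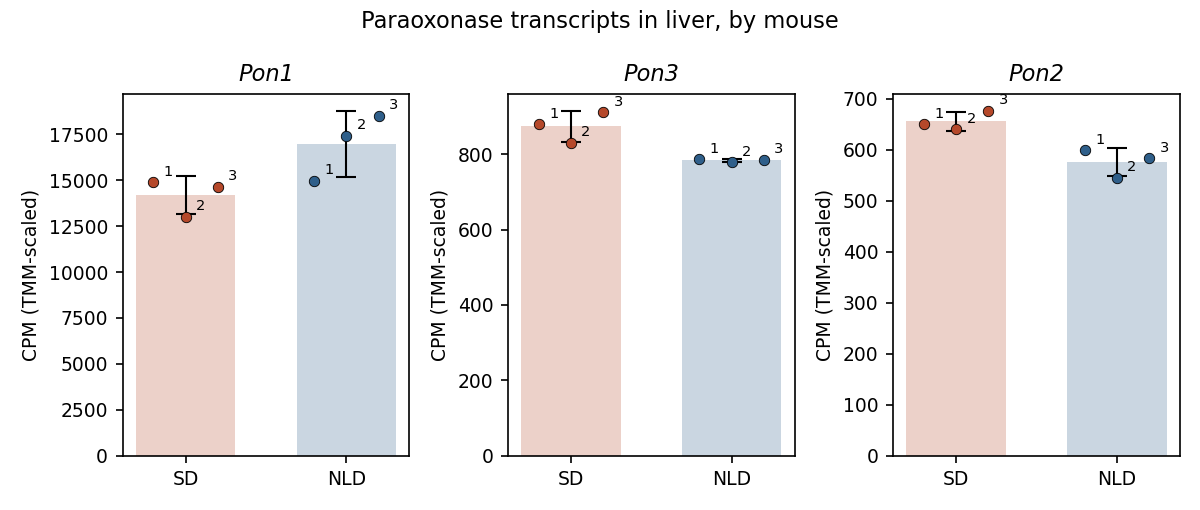
Level of Pon1, Pon3 and Pon2 in each liver library (y axis, TMM-scaled CPM from 0, a different range for each gene), with SD left of NLD. Numbered points are mice, bars are means and error bars are standard deviations (n = 3). Pon1 lay at 13014 to 14905 CPM under SD and 14982 to 18514 CPM under NLD, while Pon3 and Pon2 lay higher under SD than under NLD in every library.

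None of the 3 members was therefore called at an adjusted p under 0.05, where 0.289% of all tested rows were called (21 of 7261), and none had an unadjusted p under 0.05 from edgeR, where 8.48% of all rows had one (4.46% higher and 4.02% lower under SD). DESeq2 called none of the 3, where it called 1.9% of all rows, and gave 1 of them, Pon1, an unadjusted p under 0.05, where 9.98% of all rows had one. The intervals leave room for a change of Pon1 between 0.67-fold and 1.04-fold, of Pon3 between 0.93-fold and 1.33-fold and of Pon2 between 0.95-fold and 1.37-fold, so that a 2-fold change of any member lies outside them. The exact permutation test of log2 CPM gave p = 0.10 for each member, the smallest two-sided p that 3 mice against 3 allow. The groups did not overlap in 3 of 3 members, 2 higher and 1 lower under SD, while 17% of all rows did not overlap, 9.08% being higher and 7.93% lower under SD. Among the 327 position-matched rows, edgeR called 0.306%, 14.1% had an unadjusted p under 0.05, and the groups did not overlap in 14.1% (higher under SD) and 9.48% (lower under SD). The direction of each member was the same under every alternative run, and the separation of the groups was not. Scaled to total counts alone, the groups overlapped for all 3 members, with Pon1 at 12785 to 15865 CPM under SD and 15855 to 17627 under NLD. Scaled by the upper quartile, Pon1 overlapped and the others did not, and with RLE factors none of the 3 overlapped. Scaled to the sum of the position-matched rows, all 3 overlapped, and the ratio of the means of SD to NLD was 0.79 for Pon1, 1.06 for Pon2 and 1.05 for Pon3.

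**Figure D2:**
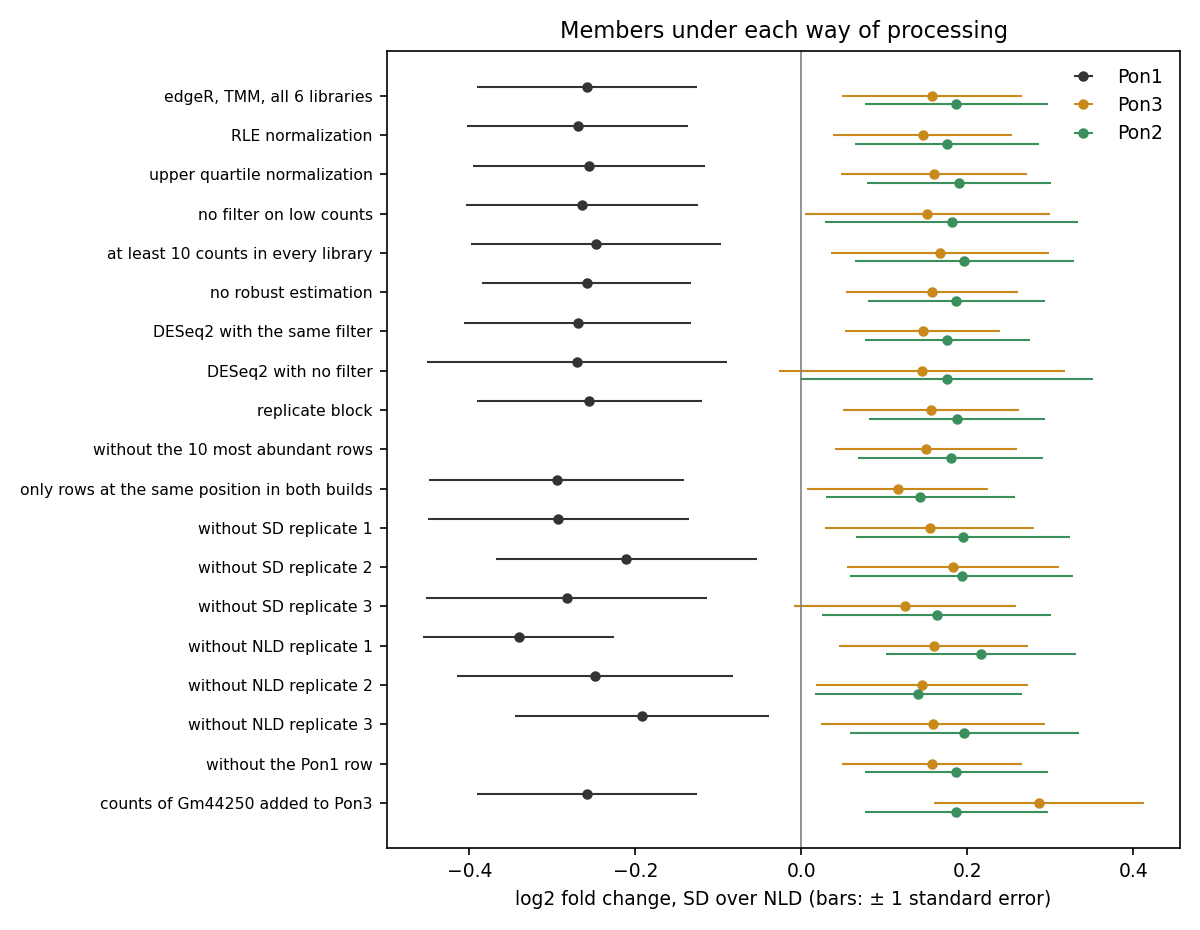
Log2 fold change of SD over NLD (x axis) of Pon1, Pon3 and Pon2 under each way of processing (y axis). Points are estimates and bars are 1 standard error, and Pon1 has no point where its row was left out. All points of Pon1 lay between -0.34 and -0.19, those of Pon3 between 0.12 and 0.29 and those of Pon2 between 0.14 and 0.22.

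**Figure D3:**
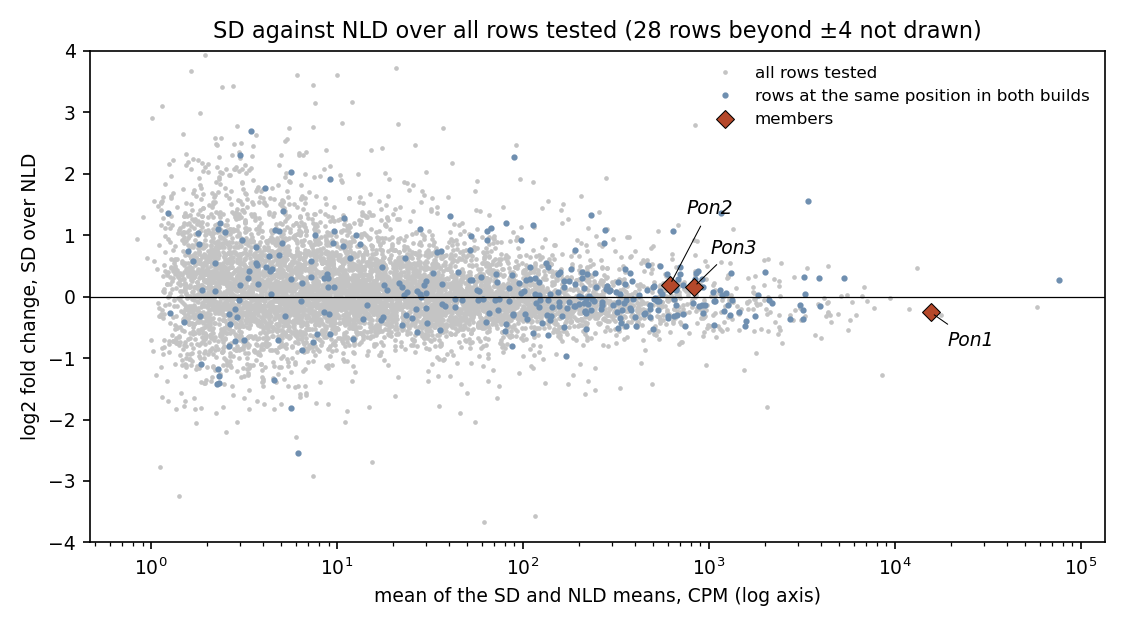
Log2 fold change of SD over NLD (y axis) against the mean of both group means in CPM (x axis, log scale) for the 7261 rows tested. Grey points are all rows, blue points the 327 position-matched rows and diamonds the members, and 28 rows beyond ±4 are not drawn. The 3 members lay close to 0 among abundant rows.

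The balance within the family does not depend on the scaling of libraries. Pon1 made up 90.7%, 89.8% and 90.2% of the paraoxonase counts in the SD libraries and 91.5%, 92.9% and 93.1% in the NLD libraries, each with a 95% Wilson interval of at most 0.188 percentage points to either side, which covers counting error only. Every SD library had a smaller share of Pon1 than every NLD library. This follows from the TMM-scaled levels above, as do the ratios with Pon1 below, and is not separate evidence. The count ratio of Pon1 to Pon3 was 16.9, 15.7 and 16.1 under SD and 19.1, 22.3 and 23.6 under NLD. The SD libraries were close together, and those of NLD were more spread and higher. The count ratio of Pon1 to Pon2 was 22.9, 20.3 and 21.7 under SD and 25.01, 32.0 and 31.7 under NLD, again without overlap. In the share of Pon1 and in both ratios, NLD replicate 1 was the NLD library nearest to the SD libraries. Taken as log2 ratios, SD minus NLD was -0.41 for Pon1 over Pon3 and -0.44 for Pon1 over Pon2, that is 0.75-fold and 0.74-fold (exact permutation p = 0.10 each, adjusted p = 0.15 over the 3 pairs).

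The count ratio of Pon3 to Pon2 was 1.35, 1.30 and 1.35 under SD and 1.31, 1.43 and 1.35 under NLD. These groups overlapped, with a difference of -0.03 on the log2 scale (exact permutation p = 0.60). The difference between the members in their response was examined after their values were seen, and the exact permutation test of 3 against 3 cannot give a p below 0.10.

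**Figure D4:**
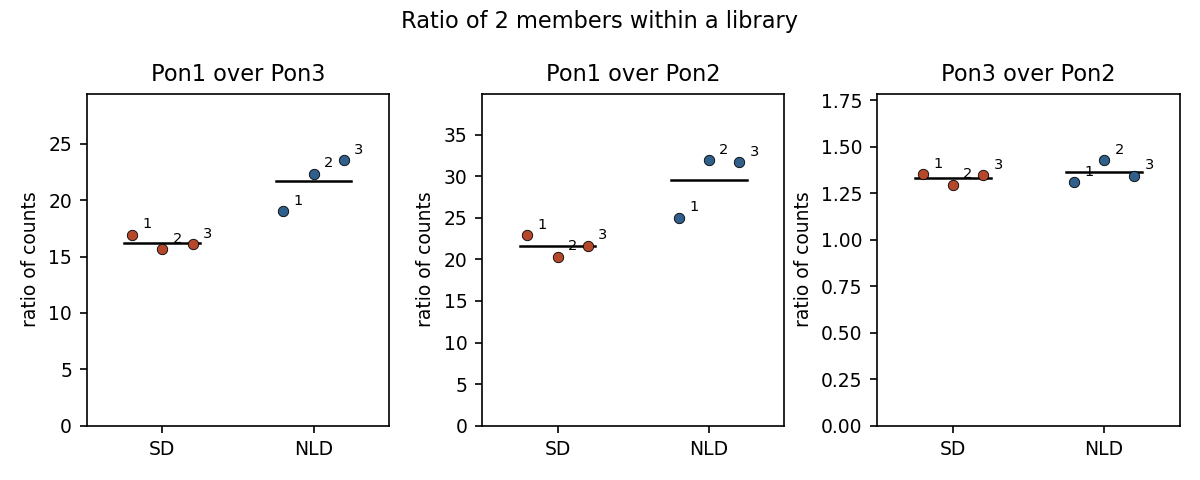
Ratio of the counts of 2 members within each library (y axis, from 0), with SD left of NLD. Numbered points are mice and lines are means. Both ratios with Pon1 on top were lower in every SD library, and the ratio of Pon3 to Pon2 overlapped between the groups at 1.30 to 1.35 under SD and 1.31 to 1.43 under NLD.

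The row Gm44250, named after its values were seen, bears on how much of Pon3 was counted. It lies from 5216258 to 5220486 on chromosome 6 of GRCm39, downstream of the last exon of the GENCODE models of Pon3, while the longer RefSeq model of Pon3 reaches over this row. It had 5843, 5863 and 7567 counts under SD and 4002, 5114 and 4343 under NLD, between 0.88 and 1.27 counts for each count of Pon3. Its level was 1002 ± 148 CPM under SD and 754 ± 88.8 under NLD (n = 3 each), without overlap. But SD replicate 2 (861 CPM) and NLD replicate 2 (855 CPM) were nearly level. Of the position-matched rows, 14.1% were higher under SD without overlap. For Gm44250, SD exceeded NLD by 0.41 on the log2 scale, with a standard error of 0.16 (adjusted p = 0.578 from edgeR and 0.347 from DESeq2). With its counts added to those of Pon3, the sum was 1876 ± 188 CPM under SD and 1538 ± 85.3 under NLD, 0.29 apart on the log2 scale with a standard error of 0.13 (adjusted p = 0.599 from edgeR). Whether these counts come from transcripts of Pon3 was not tested.

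Of the other protein-coding genes within 1 Mb of the cluster, all 9 were position-matched and 8 had enough counts for the test. None of the 8 had an adjusted p under 0.05 from edgeR. An unadjusted p under 0.05 from edgeR was found for 2, both higher under SD, where 14.1% of all position-matched rows had one. DESeq2 called both, where it called 1.9% of all rows (its share of the position-matched rows was not computed). Casd1, which O-acetylates sialic acids, had 395, 386 and 442 CPM under SD and 314, 299 and 286 under NLD, 0.45 apart on the log2 scale with a standard error of 0.12 (adjusted p = 0.417 from edgeR and 0.0216 from DESeq2). Pdk4, a fasting-induced kinase that restrains pyruvate oxidation and the second gene beyond Pon2, had 261, 69.9 and 113 CPM under SD and 29.9, 40.3 and 21.6 under NLD, with adjusted p values of 0.359 from edgeR and 5.47e-04 from DESeq2. The groups of Casd1 and Pdk4 did not overlap, where 14.1% of the position-matched rows were higher under SD without overlap.

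The other 6 tested neighbours overlapped between the groups. Per kb of merged exons, Slc25a13, the aspartate–glutamate carrier of mitochondria, had 329 CPM under SD and 321 under NLD, above Pon3 and below Pon1. Col1a2 (a collagen chain of fibroblasts), Sgce (sarcoglycan epsilon), Peg10 (an imprinted gene of retroviral origin), Ppp1r9a (a regulator of protein phosphatase 1) and Asb4 (an ankyrin repeat protein) had between 0.45 and 16.0 CPM per kb under SD and between 0.45 and 13.9 under NLD. Dync1i1, a dynein chain, had 4 counts in SD replicate 2 and none elsewhere. No tested neighbour reached the level of Pon1, and the nearest, Ppp1r9a, had 2.66 CPM per kb under SD and 2.98 under NLD.

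**Figure D5:**
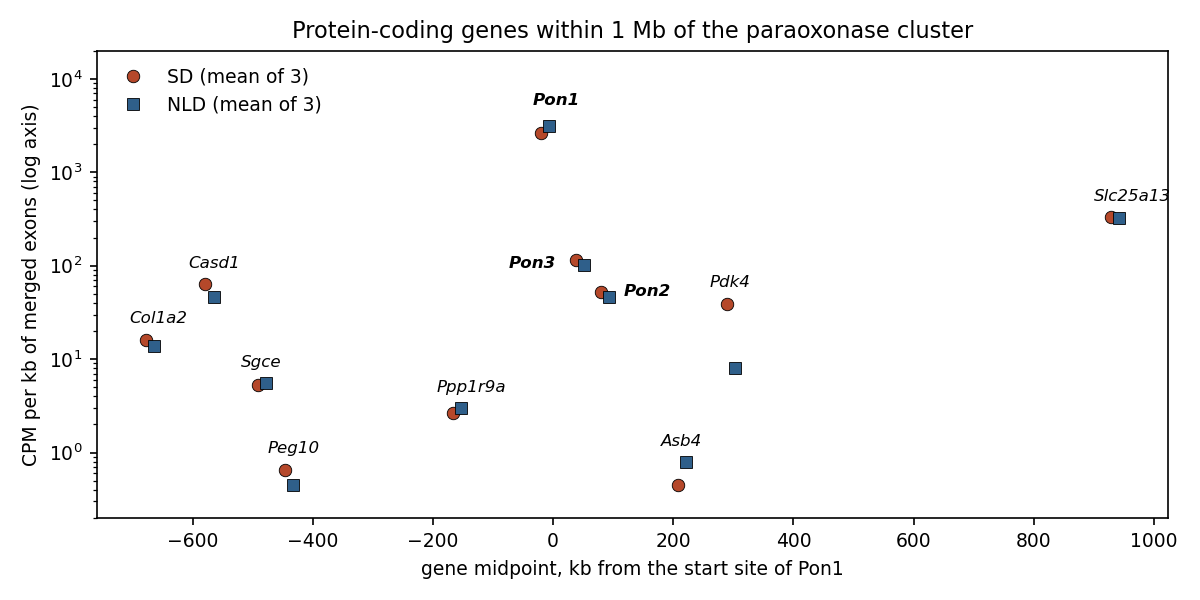
Level per kb of merged exons (y axis, log scale, mean of 3 libraries) of the protein-coding genes within 1 Mb of the cluster, against the distance of the gene's midpoint from the start site of Pon1 in kb (x axis). Circles are SD and squares are NLD, drawn slightly apart, and Dync1i1 is not drawn because it had no count under NLD. Pon1 stood at 2620 under SD and 3133 under NLD, and Pdk4 was the neighbour with the widest gap between the groups.

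Likeness of pattern was measured as the root mean square difference of centred log2 CPM over the 6 libraries, among the 326 other position-matched rows. The row most like Pon2 was Pon3 and the row most like Pon3 was Pon2, with a difference of 0.04. Next to Pon2 came Rngtt, which caps messenger RNA (0.06), and Dnajc25, a DnaJ protein (0.07), and next to Pon3 came Dnajc25 (0.05) and C1galt1, which builds O-linked glycans (0.06). The rows most like Pon1 were Grhpr, the glyoxylate reductase (0.08), Vcp, a protein-unfolding ATPase (0.11), and Baat, which joins bile acids to taurine and glycine (0.12). From Pon1, Pon3 had rank 84 and Pon2 rank 101 of the 326. The measure favours rows that vary little, and all rows share the same 6 libraries and scaling.

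Grhpr, which turns glyoxylate and hydroxypyruvate into less reactive acids, had 1561 CPM under SD and 1953 under NLD (log2 fold change -0.32, adjusted p = 0.618 from edgeR). Rngtt had 132 CPM under SD and 112 under NLD (log2 fold change 0.24, adjusted p = 0.642). Neither passed the test.

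HDL and lipoprotein genes were looked at because PON1, and in humans also PON3, travels on HDL. Of 35 rows, 18 were listed at 0 in all 6 libraries and 8 could be tested, of which 1 was position-matched. None of the 8 had an adjusted p under 0.05 from edgeR. At an unadjusted p under 0.05 from edgeR 1 was higher, where 8.48% of all rows and 14.1% of the position-matched rows had such a p. DESeq2 called the same row, where it called 1.9% of all rows (its share of the position-matched rows was not computed). This was Abca1, which loads cholesterol onto apolipoprotein A-I as HDL forms and is the position-matched row. It had 12875, 16530 and 14837 counts under SD and 10718, 9491 and 10577 under NLD. All its SD libraries were higher, where 14.1% of the position-matched rows lay higher under SD without overlap. At 2291 ± 126 CPM under SD and 1728 ± 129 under NLD (n = 3 each), its fold change was 0.41 on the log2 scale, with a standard error of 0.12 (adjusted p = 0.441 from edgeR and 0.0398 from DESeq2). The median log2 fold change of the 8 rows was 0.06, against 0.03 over all rows tested. Apoa1 and Apoa2, the main proteins of HDL, could not be judged, since their rows are not position-matched and held at most 5 counts.

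Antioxidant enzymes had 10 tested rows of 30, and none had an adjusted p under 0.05 from edgeR or from DESeq2. At an unadjusted p under 0.05 from edgeR 1 was higher, the row named Gss, where 8.48% of all rows had such a p. That row is not position-matched, and its counts could not be tied to the gene. Their median log2 fold change was -0.09. The only position-matched one was Txn1 (thioredoxin), which had 14270, 21831 and 18451 counts under SD and 16794, 27069 and 20629 under NLD. Its log2 fold change was -0.36 (standard error 0.20, adjusted p = 0.650 from edgeR). Other esterases and lactonases had 5 tested rows of 27 and the regulators named for paraoxonase genes, Hnf4a and Sp1 among them, had 6 of 20. None of these 11 rows had an adjusted p under 0.05 from edgeR or DESeq2 or an unadjusted p under 0.05 from edgeR, and their medians were 0.05 and -0.03. None of the 11 was position-matched, so their counts could not be tied to the named genes.

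The libraries held 5548753 to 6932965 counts under SD and 5497797 to 6457190 under NLD. On the first principal component of log2 CPM (30.3% of the variance), NLD replicates 2 and 3 stood apart at 75.0 and 27.7, with the other 4 libraries between -44.8 and -13.3. These were also the libraries with the highest Pon1, and the part of this difference in the result was not tested. Cyp7a1, the bile acid synthesis enzyme that marks hepatocytes and the only position-matched row of their markers, had 5081 ± 1718 CPM under SD and 1723 ± 646 under NLD (n = 3 each), 1.56 apart on the log2 scale (adjusted p = 0.327 from edgeR and 8.75e-04 from DESeq2). The hepatocyte markers summed to 7037 to 11145 CPM under SD and 3459 to 5387 under NLD, without overlap, with 8 of 15 rows at 0. Most of the gap lay in Cyp7a1, and most of the rest in the row Cps1 (2510 CPM under SD and 1637 under NLD), which is not position-matched. The share of hepatocytes in the tissue was not measured. Of the 5 tested hepatocyte rows 3 were above 0 on the log2 scale and 2, Alb and Serpina1a, were below it. None of them had an adjusted p under 0.05 from edgeR.

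For other cell types, the summed CPM of the marker lists was 158 to 338 under SD and 150 to 264 under NLD for stellate cells and fibroblasts, with 6 of 10 rows at 0. It was 1743 to 1961 under SD and 1530 to 2132 under NLD for endothelial cells, with 4 of 10 at 0, and 20.4 to 73.0 under SD and 15.1 to 54.8 under NLD for Kupffer cells and macrophages, with 7 of 10 at 0. Cholangiocyte markers summed to 7.45 to 13.5 CPM under SD and 9.20 to 11.8 under NLD, with 4 of 8 at 0. Lymphocyte markers summed to 499 to 535 CPM under SD and 543 to 690 under NLD, with 5 of 10 at 0, Cd3d among them. The sums did not overlap, but most of the gap lay in the row Cd3e (343 CPM under SD and 437 under NLD), while Cd79b had 160 CPM under SD and 165 under NLD, and Cd4 had 9.002 under SD and 8.33 under NLD, and none of the 3 tested rows passed the test. Neutrophil markers summed to 40.1 to 46.1 CPM under SD and 47.6 to 66.2 under NLD, which is the single row Mmp9, with the other 7 of 8 at 0 and an adjusted p of 0.598 from edgeR. Erythroid markers summed to 5.59 to 7.94 CPM under SD and 7.39 to 10.03 under NLD, with 5 of 7 at 0. Apart from Col1a2, no row of these other lists was position-matched, and their part in the result was not tested. In whole liver, fewer cells of a type and less RNA per cell cannot be told apart.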

How the data were processed

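Liver RNA of 3 SD and 3 NLD mice was sequenced in 6 libraries, each taken as 1 mouse. HISAT2 alignment and StringTie quantification by the authors led to the deposited table, which holds raw counts per gene. Their methods name GRCm39, and the labels name GRCm38 and mm10. The strand setting and counting script were not given in the sources used here, and the RNA kit and the day of sampling differ between the methods and the labels. Without strand, overlapping antisense reads cannot be told apart.

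The main test was the two-sided quasi-likelihood test of edgeR 4.0.16 in R 4.3.3, after filterByExpr and TMM scaling, fitted robustly, with Benjamini-Hochberg adjustment over every row tested. A standard error is the size of the log2 fold change divided by the root of F. DESeq2 1.42.0, used by the study, was an alternative, with RLE and upper quartile factors, no filter or a minimum of 10 counts per library, a fit that was not robust, the replicate number as a block, rows left out and each library left out in turn. The fit was tested on simulated data, with changes given to rows drawn at random from all those tested. Directions were mostly recovered there, but most changes, large ones included, were not called. This outcome is over rows of all levels and was not measured for rows as abundant as the members. Lengths came from GENCODE vM39 by gene ID, which matched 54749 of 55357 rows. A row was position-matched when all RefSeq promoters (GRCm38.p6) within it and on both sides stood at the same numbers in GRCm39 (1376 rows). Chromosomes missing from that table gave none. Promoters came from RefSeq and were matched for 3 of 3 members.

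The members and lists were chosen with earlier results of these data known. Named were the members, neighbours within 1 Mb, the 3 rows most like each member, and from each list up to 4 tested rows, position-matched ones first. The canonical length, the fits without Pon1 and with Gm44250 added, the CPM of the members scaled to total counts, without the most abundant rows and to the position-matched rows, and the test of ratios between groups were chosen after seeing the data. Chi-square per row was 30.1 to 61.4 between replicates, above sampling noise, so no library was taken for a second copy of another. This does not show that they are separate animals. The labels only number the samples, and p-values measure the spread between these samples.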

Additional observations from a re-analysis of the deposited data

How the results depend on the processing

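The members kept their direction and stayed above an adjusted p of 0.05 in every alternative run, with adjusted p values of 0.295 to 0.934 for Pon1, 0.420 to 0.9996 for Pon2 and 0.540 to 0.9996 for Pon3. With 1 library left out, the log2 fold change was -0.34 to -0.19 for Pon1, 0.14 to 0.22 for Pon2 and 0.13 to 0.18 for Pon3. Pon1 could not be fitted without the 10 most abundant rows, of which it is one. The order of the members kept its direction under every length. With 1 library left out, the log2 ratio was 4.65 to 4.77 for Pon1 over Pon3, 5.78 to 5.91 for Pon1 over Pon2 and 1.12 to 1.14 for Pon3 over Pon2, with an exact p of 0.0625, the smallest that 5 libraries allow. The count of rows called moved far more: 21 became 44 with no filter, 137 with DESeq2, 91 with DESeq2 and no filter and 1 among position-matched rows (fewer rows tested), and it ranged from 0 to 30 with 1 library left out. It was 0 without SD replicate 1, 2 or 3 (edgeR, with 437, 681 and 397 rows at an unadjusted p under 0.05), and the cause was not tested. The replicate numbers did not pair the mice by the labels, and deviations of same-numbered libraries correlated at only 0.04 to 0.08, although each library correlated best with its own number. With the replicate block 0 rows were called by edgeR (766 at an unadjusted p under 0.05), and the log2 fold changes were -0.26 for Pon1, 0.19 for Pon2 and 0.16 for Pon3.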
